A study of Homo sapiens with 8 samples.

Results

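The genes described here are 10 factors that stem cell biology links to Esrrb: POU5F1 (OCT4), SOX2, NANOG, KLF4, KLF5, KLF2, TFCP2L1, TBX3, MYC and LIN28B. They were taken by symbol from the 23391 genes of a count table, and each symbol matched a single row. The question was whether Esrrb, with or without its ligand, was accompanied by higher mRNA levels of its stem cell partners in a prostate cancer line. RNA-Seq reads had been counted per gene in 8 libraries of DU145, a human prostate carcinoma cell line, in 4 groups of 2 biological replicates. DU145-pc3.1 cells carried the empty pcDNA3.1-zeo (+) vector. DU145-Esrrb cells carried the same vector with Esrrb, so that all groups had been transfected and selected with Zeocin. Each pool was a mixture of stable transfectants and not a single clone. Each pool was sequenced untreated and after 3 μM DY131, a synthetic ligand of the estrogen related receptors Esrrb and Esrrg. DY131 was given in medium with charcoal-stripped serum. The length of treatment and the vehicle of the untreated cells are not given in the sources used here.

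In pluripotent stem cells Esrrb is an orphan nuclear receptor of the network around POU5F1, SOX2 and NANOG, where it binds DNA beside these factors and shares many of their targets. KLF4, KLF2, KLF5, TFCP2L1 and TBX3 sustain self-renewal in the same network, while MYC drives growth and LIN28B keeps let-7 microRNAs from maturing. Several of them have other roles in epithelia, so the mRNA of a single factor does not mark a stem cell state.

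Total counts ranged from 7858743 to 11551690 per library, so that 3 counts, taken as the floor of detection, corresponded to 0.26 to 0.382 cpm, the count scaled to the library total. These floors cover counting error only. The intervals of log2 fold changes below come from edgeR's quasi-likelihood fit, which also takes in the spread between replicate libraries. Epithelial markers of the line were present in every library, with KRT8 at 1060 to 1630 cpm and EPCAM at 76.9 to 123 cpm. Of the prostate luminal markers reported here, KLK3 had no read and TMPRSS2 reached at most 0.13 cpm. Of the fibroblast markers COL1A1 stood at 2.74 to 5.7 cpm, PDGFRB reached at most 0.668 cpm, COL3A1 0.184 and COL1A2 0.0992. Of the leukocyte markers CD14 stood at 0.298 to 1.32 cpm, PTPRC reached at most 0.113 cpm and CD3E had no read. The endothelial markers PECAM1 and CDH5 reached at most 0.748 and 0.298 cpm. ESRRB itself had 3 and 0 reads in untreated and 0 and 1 in DY131-treated DU145-pc3.1 cells. It had 104 and 99 reads in untreated and 105 and 143 in DY131-treated DU145-Esrrb cells. The marker values above and all gene levels in cpm below are scaled by effective library size (edgeR's TMM method), unlike the floors. On this scale ESRRB in DU145-Esrrb cells was at 8.83 and 9.10 cpm untreated against 13.7 and 16.2 cpm treated. ESRRB was thus higher after DY131 in DU145-Esrrb cells (log2 fold change 0.74, SE 0.19, adjusted p = 0.00315, edgeR quasi-likelihood test), and the part of this difference in the members' changes was not tested.

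The core trio and LIN28B had few reads or none. SOX2, the HMG box partner of POU5F1, was at 0 counts in all 8 libraries. LIN28B, the inhibitor of let-7 maturation, also had 0 counts in all 8. A count of 0 over all libraries allows a mean level of up to 0.0367 cpm, taking 3 counts of the summed total as the limit. NANOG, the homeodomain factor of the trio, had 15 reads in all. Its counts were 3 and 2 in DU145-pc3.1, 2 and 4 in DU145-Esrrb, 1 and 1 in DY131-treated DU145-pc3.1, and 0 and 2 in DY131-treated DU145-Esrrb cells. No library exceeded 4 reads, and the groups with Esrrb overlapped those without it. NANOG therefore did not reach the filter of 1 cpm in at least 2 libraries, and a difference between groups was not detectable at this depth. In stretches of 50 bases, 16.9% of the NANOG transcript is repeated in other genes, 12.1% in the near-identical copy NANOGP8, so even these reads may come from elsewhere.

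The positions of these genes bear on what a count of 0 means. SOX2 (chromosome 3 of GRCh38, 181711924 to 181714436, a single exon) lies inside the noncoding gene SOX2-OT, which had 11 reads in all. How reads on overlapping genes were assigned is not given in the sources used here, but the reads of both genes together came to 11. Of 1230 single-exon protein-coding genes 668 (54.3%) had no read, against 14.4% of all protein-coding genes, and the part of this in the 0 of SOX2 was not tested. LIN28B (chromosome 6, 104936616 to 105083332) has 5 neighbours within 150 kb, of which 1 had no read. The protein-coding HACE1, BVES and POPDC3 had 1227, 1972 and 3656 reads over the 8 libraries, the noncoding BVES-AS1 had 48, and the noncoding LINC00577, which overlaps the start of LIN28B, had 0.

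POU5F1, the octamer-binding factor at the head of the network, was listed at 0 in all 8 libraries, but this 0 cannot be read as a level. It sits within the major histocompatibility region of chromosome 6, at 31164337 to 31180731 in GRCh38. Of its 12 neighbours within 150 kb, 7 had no read in any library. Among them CCHCR1 and TCF19 were at 0, and further out so were GNL1, ABCF1, PPP1R10, FLOT1 and VARS, as well as RPS18, a protein of the small ribosomal subunit that every cell makes. Other genes of the region were counted, with 4830 reads on TUBB and 4973 on HLA-C. Between 30 and 34 Mb of this chromosome, 83 of 149 protein-coding genes (55.7%) had no read, against 2655 of 18874 (14.1%) elsewhere. This window and the neighbours named were chosen after their values were seen. In addition, 59.7% of the 50-base windows of POU5F1 occur in other genes, with the largest share in its copy POU5F1B, which had 3 reads in all.

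**Figure D1:**
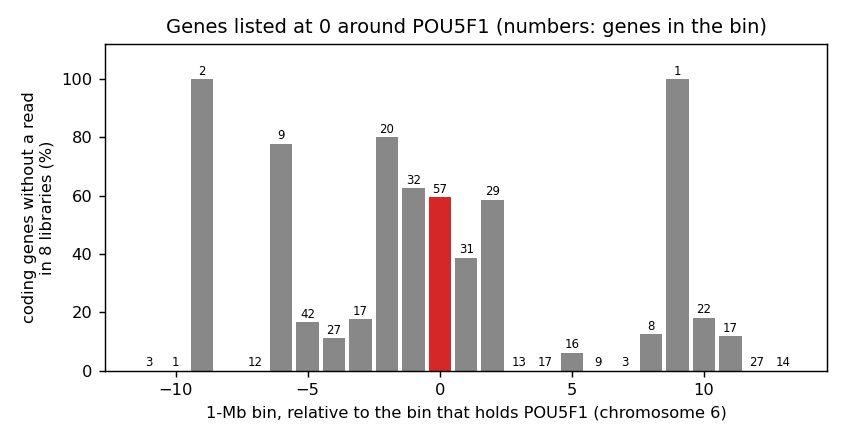
Share of protein-coding genes without a read in any of the 8 libraries (vertical axis, percent) in 1-Mb bins of chromosome 6, placed by their distance in Mb from the bin that holds POU5F1 (horizontal axis, red bar at 0). The number over each bar is the number of genes in the bin, and the bins around POU5F1 hold far more genes at 0 than the 14.1% outside the 30 to 34 Mb window.

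The other 6 members were expressed at levels that could be tested. Per kilobase of transcript, averaged over the 8 libraries, MYC was the highest at 59.6 cpm per kb, above 94% of the 22994 genes with a known length. KLF5, a Krüppel-like factor of proliferating epithelia, followed at 28.1 cpm per kb, above 86.6% of genes. KLF4 stood at 5.08 cpm per kb, KLF2 at 2.79, TBX3 at 1.89 and TFCP2L1 at 1.52, the last of them above 49.3% of genes. NANOG, at 0.0342 cpm per kb, was lower by far. The order of MYC, KLF5 and KLF4 was the same in all 4 groups, with no overlap between the genes. Below them the order was not fixed: group means ran from 1.92 to 4.31 cpm per kb for KLF2, from 1.56 to 2.27 for TBX3 and from 0.974 to 2.19 for TFCP2L1. The tested members lie on chromosomes 9 (KLF4, 107484852 to 107490482), 13 (KLF5, 73054976 to 73077542), 19 (KLF2, 16324817 to 16327874), 2 (TFCP2L1, 121216587 to 121285207), 12 (TBX3, 114670254 to 114684164) and 8 (MYC), by GENCODE release 29 on GRCh38. None of the 6 shares a 50-base window with another gene.

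**Figure D2:**
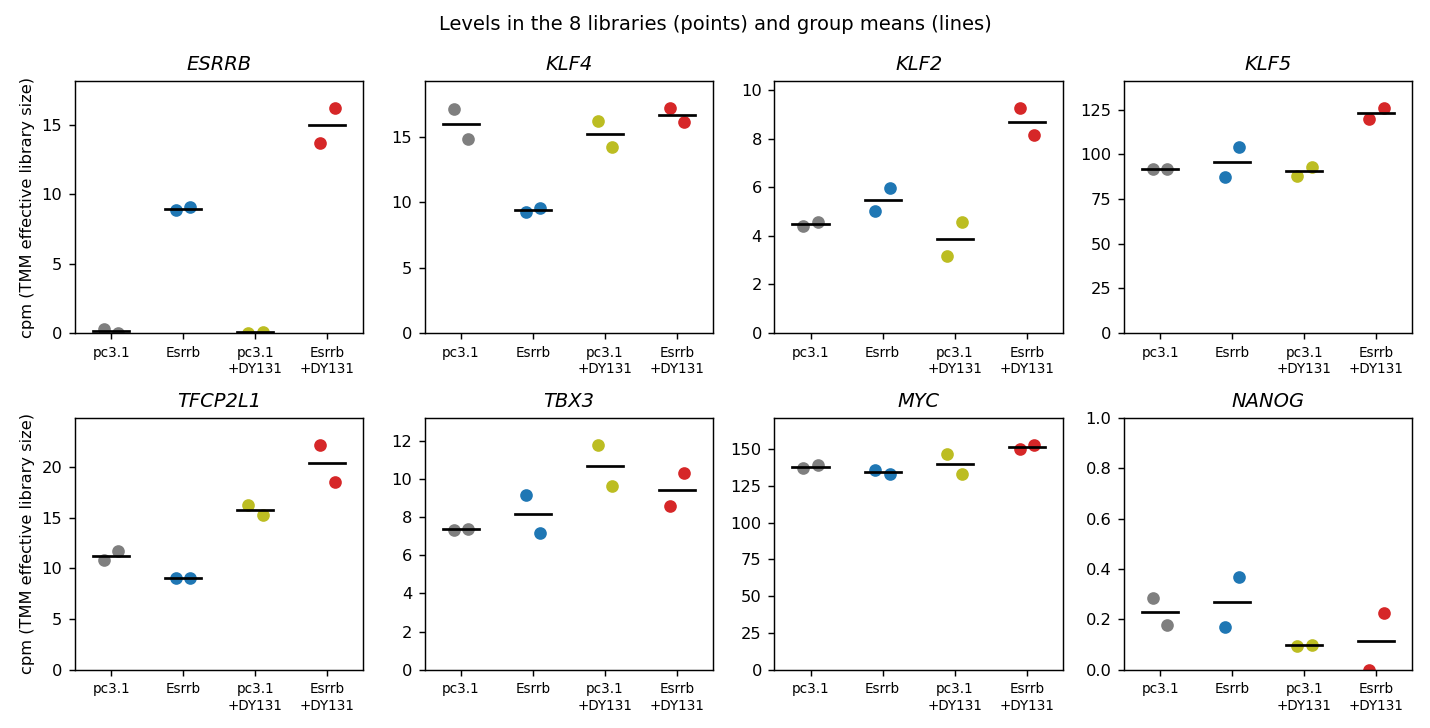
Level of ESRRB, the 6 tested members and NANOG in each of the 8 libraries, in cpm scaled by effective library size (vertical axes, linear, each from 0), by cell pool and DY131 treatment. Points are libraries and lines are means of 2; KLF4 is lowest in untreated DU145-Esrrb cells at 9.25 and 9.56 cpm, and KLF2, KLF5 and TFCP2L1 are highest in DY131-treated DU145-Esrrb cells.

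Esrrb without ligand was accompanied by a lower level of KLF4 and by no rise among the members. Of the 6 tested members, 0 rose and 1 fell at an adjusted p under 0.05 (edgeR quasi-likelihood test, Benjamini-Hochberg over all 13856 tested genes), where 4.18% of all tested genes passed, 1.68% upward and 2.5% downward. Before adjustment 2 members, KLF4 and TFCP2L1, had a p under 0.05, and 0 members were called at 2-fold by edgeR's quasi-likelihood or exact test or by DESeq2, against 0.577% of all tested genes. Bulk counts cannot tell a change per cell from a change in the share of cells that express a gene.

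KLF4, a Krüppel-like zinc finger factor that restrains growth in differentiating epithelia and is also a reprogramming factor, was at 17.1 and 14.8 cpm in DU145-pc3.1 and at 9.25 and 9.56 cpm in DU145-Esrrb cells. Both DU145-Esrrb libraries lay below both controls. The means were 15.9 ± 1.62 and 9.41 ± 0.221 cpm (SD, n = 2), and the log2 fold change was -0.76 (SE 0.14, 95% interval -1.05 to -0.47, adjusted p = 0.00445), a 1.69-fold fall that was lower than the change of all but 1.65% of the tested genes. It did not reach the 2-fold limit used for a called gene. The fall kept its direction in every alternative, at -0.86 to -0.65, but the adjusted p was 0.0795 without replicate 1 of DU145-pc3.1 and 0.0708 without replicate 1 of DU145-Esrrb, within a range of 1.78e-05 to 0.0795 over all alternatives.

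The remaining members did not pass the test. TFCP2L1, a CP2-family factor of naive stem cells, was at 10.8 and 11.7 cpm in DU145-pc3.1 and 9.08 and 9.01 cpm in DU145-Esrrb cells (log2 fold change -0.31, 95% interval -0.62 to -0.0084, adjusted p = 0.286). KLF2, which shares targets with KLF4 in stem cells, was at 4.39 and 4.58 against 5.01 and 5.98 cpm (0.29, -0.16 to 0.74, adjusted p = 0.543). The groups did not overlap for 4 of the 6 members, KLF4, TFCP2L1, KLF2 and MYC (137 and 139 against 136 and 133 cpm), and neither did they for 51.6% of all tested genes, so that with 2 libraries a group this says little about a gene. KLF5 (log2 fold change 0.060, 95% interval -0.11 to 0.23) and MYC (-0.033, -0.16 to 0.099) had narrow intervals, which leave room for a rise of at most 0.23 and 0.099 on the log2 scale. TBX3, a T-box factor, had the interval -0.23 to 0.53. The median log2 fold change of the 6 was 0.014, and that of all tested genes 0.0012.

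DY131 in DU145-pc3.1 cells, which have almost no ESRRB reads, was accompanied by higher TFCP2L1 and TBX3. These 2 of 6 tested members rose and 0 fell, where 37.4% of all tested genes passed the same threshold, 18.9% upward and 18.5% downward. TFCP2L1 was at 10.8 and 11.7 cpm untreated and at 16.3 and 15.3 cpm treated, without overlap (log2 fold change 0.49, SE 0.13, adjusted p = 0.00968, edgeR). TBX3 was at 7.35 and 7.40 cpm untreated and at 11.8 and 9.62 cpm treated, also without overlap (0.54, SE 0.17, adjusted p = 0.0225). For the other 4 members the groups overlapped, and they lay apart for 65.5% of all tested genes. Neither rise reached 2-fold, as 4.19% of all tested genes did, and the share of members that passed, 2 of 6, was close to that of all genes.

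Both rises depended on the setting. DESeq2 gave adjusted p values of 0.0672 for TFCP2L1 and 0.121 for TBX3, so 0 members passed with that tool, while edgeR's exact test passed 2. Without replicate 1 of DU145-pc3.1 the values were 0.0752 and 0.0946, TBX3 also missed the threshold without replicate 2 of that group (0.0928) or replicate 1 of the treated group (0.116), and TFCP2L1 missed it (log2 fold change 0.26, adjusted p = 0.134) once transcript length and GC content were corrected for. Over all alternatives the adjusted p ran from 0.00343 to 0.134 for TFCP2L1 and from 0.00438 to 0.121 for TBX3. The treated DU145-pc3.1 replicates also differed most from each other, with a chi-square per degree of freedom of 7.1 against 1.29 to 2.6 in the other groups. KLF4, KLF5, KLF2 and MYC had log2 fold changes of -0.067, -0.019, -0.22 and 0.020 with DY131 in these cells, none past the test (adjusted p 0.486 to 0.872).

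In DU145-Esrrb cells DY131 was accompanied by higher TFCP2L1, KLF4, KLF2, KLF5 and MYC. Of the 6 tested members 5 rose and 0 fell, where 58.7% of all tested genes passed, 29.2% upward and 29.5% downward. Only TFCP2L1 was also past 2-fold and so called, against 12% of all tested genes, a call that was lost with an offset for transcript length and GC content (log2 fold change 0.88, adjusted p = 4.51e-05) and with the junction offset described below. The groups lay apart for these 5 members, as for 82.2% of all tested genes.

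TFCP2L1 was at 9.08 and 9.01 cpm in untreated and at 22.2 and 18.5 cpm in treated DU145-Esrrb cells. The treated libraries lay above every other library of the series. Its log2 fold change was 1.16 (SE 0.14, 95% interval 0.87 to 1.45, adjusted p = 3.45e-06, edgeR), a 2.24-fold rise that was larger than the change of 97.9% of the tested genes. KLF4 was at 9.25 and 9.56 cpm untreated and at 17.2 and 16.1 cpm treated. The treated values lay among those of DU145-pc3.1 cells with and without DY131 (14.2 to 17.1 cpm) or just above them, so the rise (log2 fold change 0.82, SE 0.14, adjusted p = 0.000135) ran from the low level of untreated DU145-Esrrb cells up to that of the control pool.

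KLF2 was at 5.01 and 5.98 cpm untreated and at 9.26 and 8.14 cpm treated, and the treated libraries were the highest of all 8. The log2 fold change was 0.66 (SE 0.20, adjusted p = 0.00929). KLF5 was at 87.2 and 104 cpm untreated and at 120 and 126 cpm treated, again above all other libraries (0.36, SE 0.08, adjusted p = 0.000951). MYC, a driver of cell growth, was at 136 and 133 cpm untreated and at 150 and 153 cpm treated, a rise of 1.13-fold (0.17, SE 0.06, adjusted p = 0.0275). TBX3 was at 9.17 and 7.17 against 8.60 and 10.3 cpm, groups that overlapped, and did not pass (0.21, adjusted p = 0.327). The median log2 fold change was 0.51 for the 6 members and -0.0045 for all tested genes.

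**Figure D3:**
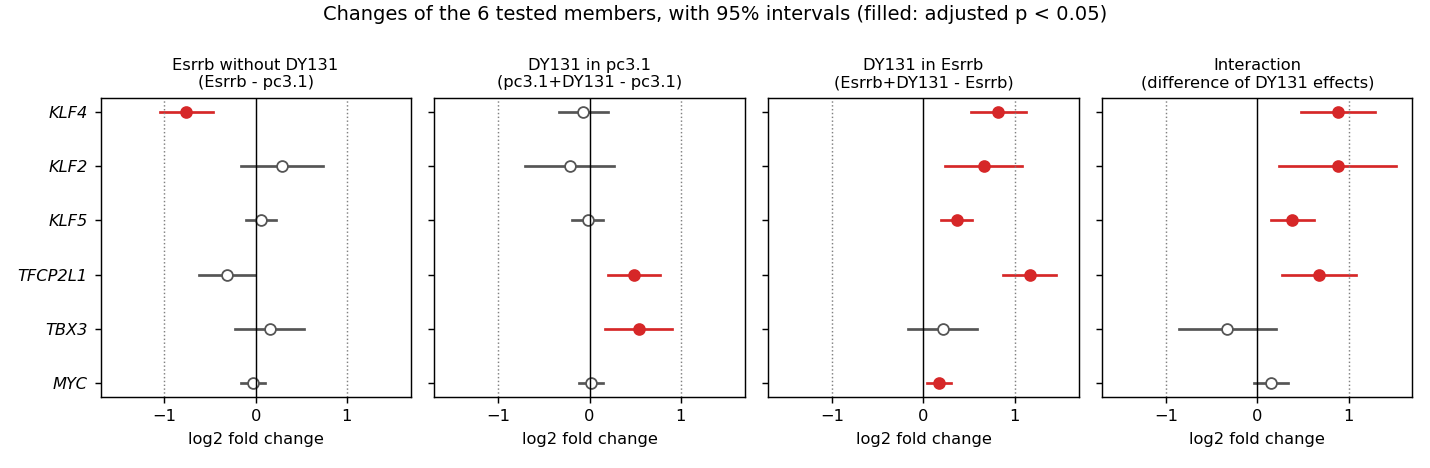
Log2 fold changes of the 6 tested members (horizontal axes) with 95% intervals from edgeR's quasi-likelihood fit, for Esrrb without DY131, DY131 in DU145-pc3.1 cells, DY131 in DU145-Esrrb cells, and the interaction, which is the difference between both DY131 effects. Red filled points have an adjusted p under 0.05 and dotted lines mark 2-fold; red points to the right fill the third panel for all members except TBX3, whereas the first has a red point for KLF4 only, to the left.

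A property of the transcripts moved with this comparison. The share of 50-base windows, the read length, that cross an exon junction was computed for each transcript. Across 13706 tested genes it correlated with the log2 fold change of DY131 in DU145-Esrrb cells at Spearman's rho = -0.373, as a description over genes that share libraries, and at 0.0106 where DU145-pc3.1 cells received DY131. The tested members all have low shares, 4.2% to 7.4%, and the 1706 genes within that range had a median log2 fold change of 0.20 with DY131 in DU145-Esrrb cells. With an offset that removes this trend, 2 members passed in place of 5. TFCP2L1 (log2 fold change 0.94, adjusted p = 3.92e-05) and KLF4 (0.59, adjusted p = 0.00261) still rose, TFCP2L1 no longer past 2-fold. KLF5 (0.11, adjusted p = 0.234) and KLF2 (0.41, adjusted p = 0.0915) no longer passed, and MYC (-0.079) and TBX3 (-0.033) turned negative. The part of this trend in the members' changes was not tested.

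Other alternatives moved the weaker rises too. KLF2 missed the threshold with DESeq2 (adjusted p = 0.0771), without replicate 1 of untreated DU145-Esrrb cells (0.0903) and without library a of the treated group (0.0805), where a and b name both treated libraries, whose columns carry no replicate number. MYC missed it with DESeq2 (0.0692), with library size alone (0.162), with at least 10 counts in every library (0.0781) and without any of the 4 libraries compared (0.0817 to 0.154). Over all alternatives the adjusted p ran from 3.34e-14 to 0.000268 for TFCP2L1, from 2.95e-07 to 0.00346 for KLF4, from 4.54e-06 to 0.234 for KLF5, from 0.00111 to 0.0915 for KLF2 and from 0.00397 to 0.319 for MYC.

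**Figure D4:**
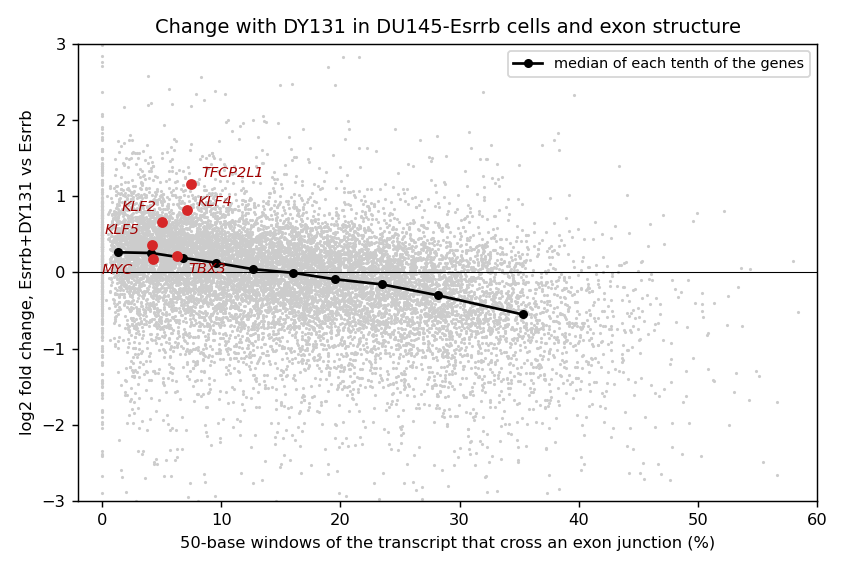
Log2 fold change with DY131 in DU145-Esrrb cells (vertical axis) against the share of 50-base transcript windows that cross an exon junction (horizontal axis, percent) for 13706 genes in grey, with the 6 tested members in red; genes beyond 3 in either direction are not drawn. The black line joins the medians of successive groups of equal gene number and runs from 0.26 to -0.55; TFCP2L1, KLF4 and KLF2 lie above it, while TBX3, MYC and KLF5 lie close to it.

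The effect of DY131 differed between the cell pools for 4 of the 6 members. This was tested as the interaction, the difference between the DY131 log2 fold changes in DU145-Esrrb and in DU145-pc3.1 cells. It was positive past the threshold for KLF4, KLF2, TFCP2L1 and KLF5 and negative for 0 members, where 33.7% of all tested genes passed, 16.1% in the positive and 17.6% in the negative direction. The difference was 0.89 for KLF4 (SE 0.19, adjusted p = 0.00234), 0.88 for KLF2 (SE 0.30, adjusted p = 0.0355), 0.68 for TFCP2L1 (SE 0.19, adjusted p = 0.0136) and 0.38 for KLF5 (SE 0.11, adjusted p = 0.0154). TFCP2L1 rose with DY131 in both pools and more in DU145-Esrrb cells, whereas KLF4, KLF2 and KLF5 rose in DU145-Esrrb cells alone. MYC (0.15, adjusted p = 0.201) and TBX3 (-0.33, adjusted p = 0.333) did not pass. None of the 4 differences was past 2-fold, against 6.28% of all tested genes.

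The interaction followed the exon junction share more steeply, at Spearman's rho = -0.457 across genes. With the offset KLF4 alone passed (0.66, adjusted p = 0.0214), while KLF2 (0.63, 0.143), TFCP2L1 (0.46, 0.0998) and KLF5 (0.14, 0.411) kept their direction without passing. DESeq2 passed KLF4 (adjusted p = 0.0184) and KLF5, but not KLF2 (0.188) or TFCP2L1 (0.094). KLF4 passed without each library in turn (adjusted p 0.000279 to 0.0178). KLF2 missed the threshold without any library other than replicate 2 of untreated DU145-Esrrb and of DY131-treated DU145-pc3.1 cells (0.062 to 0.125). KLF5 missed it without replicate 1 of DU145-pc3.1 (0.0535), replicate 1 of DU145-Esrrb (0.103) or library b of the treated DU145-Esrrb cells (0.0897), and TFCP2L1 without replicate 2 of DU145-pc3.1 (0.0623) or library a (0.0778).

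Where both pools had received DY131, DU145-Esrrb cells had higher KLF2, KLF5 and TFCP2L1 than DU145-pc3.1 cells. These 3 of 6 rose and 0 fell, where 50.4% of all tested genes passed, 25.1% upward and 25.3% downward. KLF2, at 9.26 and 8.14 cpm against 3.18 and 4.56 cpm, was 2.25-fold higher and was called (log2 fold change 1.17, SE 0.21, adjusted p = 0.000327), as were 8.21% of all tested genes. KLF5 was at 120 and 126 against 88.2 and 93.0 cpm (0.44, SE 0.08, adjusted p = 0.000274), and TFCP2L1 at 22.2 and 18.5 against 16.3 and 15.3 cpm (0.36, SE 0.13, adjusted p = 0.0276). The groups lay apart for these 3 genes and for MYC, as for 72.7% of all tested genes. KLF4 (0.13, 95% interval -0.15 to 0.41), MYC (0.12, -0.014 to 0.25) and TBX3 (-0.18, -0.55 to 0.19) did not pass. The trend with exon junctions was at its steepest here (Spearman's rho = -0.474 across genes). With its offset KLF2 rose by 0.91 on the log2 scale, short of 2-fold, and was the only member to pass, whereas KLF5 (0.19, adjusted p = 0.0699) and TFCP2L1 (0.14, adjusted p = 0.402) did not, and KLF4 (-0.098) and MYC (-0.14) turned negative. TFCP2L1 also missed the threshold in 5 other alternatives, among them DESeq2 (0.157) and the fits without replicate 2 of the treated DU145-pc3.1 (0.0697) or library a of the treated DU145-Esrrb cells (0.267). Without replicate 1 of the treated DU145-pc3.1 cells KLF2 fell below 2-fold (log2 fold change 0.91) and MYC passed (0.18, adjusted p = 0.0185).

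Against untreated DU145-pc3.1 cells, DY131-treated DU145-Esrrb cells had higher TFCP2L1, KLF2 and KLF5, and 0 members were lower. Of all tested genes 59.3% passed in this comparison, 29.1% upward and 30.1% downward. The log2 fold changes were 0.85 for TFCP2L1 (SE 0.13, adjusted p = 5.92e-05), 0.95 for KLF2 (SE 0.21, adjusted p = 0.000977) and 0.42 for KLF5 (SE 0.08, adjusted p = 0.000273), all short of the 2-fold that 12.8% of all tested genes reached. KLF4 was close to its starting level, at 17.2 and 16.1 against 17.1 and 14.8 cpm, with a log2 fold change of 0.062 and a 95% interval of -0.22 to 0.34. TBX3 (0.36, adjusted p = 0.101) and MYC (0.14, adjusted p = 0.0676) did not pass. With the junction offset KLF5 missed the threshold (0.17, adjusted p = 0.0861), and without either treated DU145-pc3.1 library MYC passed (adjusted p = 0.0204 and 0.0175). These comparisons share libraries with those above and are not independent of them.

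The promoters of the 3 members whose rise with DY131 in DU145-Esrrb cells was largest, TFCP2L1, KLF4 and KLF2, are shown because their sequences let the letters bound by the network's factors be looked up. Each line gives the 150 bases before the transcription start in RefSeq's GRCh38.p14 annotation, 5′ to 3′ on the gene's strand. Capitals mark GGGNGNGG or its reverse complement CCNCNCCC, letters that Krüppel-like factors bind. KLF4 lies at chr9:107489770-107489919 on the minus strand, KLF2 at chr19:16324676-16324825 on the plus strand and TFCP2L1 at chr2:121285203-121285352 on the minus strand. The starts differ from the GENCODE spans given above. By those spans the KLF4 stretch lies inside the gene, and the stretches of KLF2 and TFCP2L1 overlap the edges of their genes.
KLF4: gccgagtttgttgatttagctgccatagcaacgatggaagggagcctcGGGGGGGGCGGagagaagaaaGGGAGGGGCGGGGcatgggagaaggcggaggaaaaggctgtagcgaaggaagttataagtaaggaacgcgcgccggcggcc
KLF2: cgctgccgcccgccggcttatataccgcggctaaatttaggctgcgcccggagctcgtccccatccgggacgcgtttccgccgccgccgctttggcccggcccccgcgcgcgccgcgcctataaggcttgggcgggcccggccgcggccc
TFCP2L1: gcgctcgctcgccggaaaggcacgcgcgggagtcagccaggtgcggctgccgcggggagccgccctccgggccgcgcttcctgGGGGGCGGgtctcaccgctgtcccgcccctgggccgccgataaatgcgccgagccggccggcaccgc

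The KLF4 stretch holds 4 overlapping matches, that of TFCP2L1 holds 1 and that of KLF2 holds 0. Promoter windows of 300 bases, 250 before and 50 after the start, were at hand for 7 of the 10 members with 9 starts in all. On either strand GGGNGNGG occurred in 6 of these 9 windows, in KLF2, KLF4, KLF5, LIN28B, SOX2 and TFCP2L1, against 56.2% of all 35116 promoters. AAGGTCA or TGACCTT, the core of the element that Esrrb binds, was in 0 of the 9 windows, against 3.92% of all promoters. The palindrome CACGTG, bound by MYC with MAX, was in the windows of KLF4 and LIN28B, against 7.26% of all promoters, and the octamer ATGCAAAT or ATTTGCAT, bound by POU factors, was in 0 of 9 against 1.77%. No motif contains another. A match in these windows is a description of letters, and the lack of one says nothing of sites outside them.

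Among 30 other genes of the pluripotent state, 9 had no read in any library and 11 could be tested. With DY131 in DU145-Esrrb cells 3 of the 11 rose and 2 fell, where 29.2% of all tested genes rose and 29.5% fell (58.7% in all), the background for each list below. NR5A2, an orphan nuclear receptor that like Esrrb can act in reprogramming, was at 4.41 and 2.94 cpm untreated and 8.08 and 7.12 cpm treated, above all other libraries (log2 fold change 1.03, SE 0.23, adjusted p = 0.00117). Its DY131 effect differed between the pools by 1.60 (SE 0.35, adjusted p = 0.00268), and it passed in every alternative, the junction offset included (0.87, adjusted p = 0.00473, range 1.73e-05 to 0.0234). NR0B1 (DAX1), a repressor that acts with nuclear receptors, fell from 2.63 and 1.75 to 0.652 and 1.02 cpm (-1.37, adjusted p = 0.0146), and KLF17, a factor of the early human embryo, from 2.21 and 3.31 to 0.913 and 0.791 cpm (-1.68, adjusted p = 0.00479). NR0B1 passed in 13 of 16 alternatives and KLF17 in 15 of 16. Without DY131, Esrrb was accompanied by a rise of 0 and a fall of 1 of the 11, that of ZFX (log2 fold change -0.32, adjusted p = 0.0498), where 4.18% of all tested genes passed, and 0 were called.

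Around LIN28B, 10 of 12 genes of the let-7 axis were tested, of which 4 rose and 1 fell with DY131 in DU145-Esrrb cells, against 58.7% of all tested genes that passed. Those that rose were HMGA2, ARID3B (0.85), HMGA1 (0.74) and DICER1 (0.55), and IGF2BP3 fell by 0.31 on the log2 scale (adjusted p = 0.0475). With DY131 in DU145-pc3.1 cells HMGA2 (0.72, adjusted p = 0.00365), ARID3B (0.54, adjusted p = 0.00476) and DICER1 (0.51, adjusted p = 1.34e-05) also rose by edgeR's quasi-likelihood test. HMGA1 (-0.14, adjusted p = 0.103) and IGF2BP3 (0.021, adjusted p = 0.903) did not pass there. HMGA2, a chromatin protein and let-7 target, was at 5.35 and 6.81 cpm in untreated and 26.6 and 29.8 cpm in treated DU145-Esrrb cells (log2 fold change 2.22, SE 0.15, adjusted p = 1.29e-08), and it passed in all 17 alternatives, with 1.97 under the junction offset. IGF2BP1, an mRNA-binding protein and another let-7 target, was at 1.91 and 2.73 cpm in DU145-pc3.1 and 0.849 and 0.644 cpm in DU145-Esrrb cells, the only gene of all these lists called for Esrrb without DY131 (-1.62, SE 0.40, adjusted p = 0.0312). It passed in 11 of 18 alternatives, with adjusted p from 0.00249 to 0.285. With DY131 in DU145-Esrrb cells its log2 fold change was -1.58 (adjusted p = 0.0681). In the MYC dimer network 12 of 13 genes were tested, of which 5 rose and 3 fell with DY131 in DU145-Esrrb cells, against 58.7% of all tested genes that passed. MXD3, a MAX partner, fell from 15.5 and 18.8 to 3.91 and 4.97 cpm (-1.93, adjusted p = 4.31e-07), while MXD1, a MAX partner that opposes MYC, rose from 9.93 and 8.92 to 24.0 and 24.8 cpm (1.37, adjusted p = 2.41e-06). Both passed in all 17 alternatives. MLXIPL fell by 1.09 on the log2 scale (adjusted p = 0.0016), by 0.96 with the junction offset, and its value ran from -1.50 to -0.81 over the alternatives, so its 2-fold call depended on the setting.

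The relatives of the members were mostly expressed. Of 14 other KLF genes 11 were tested, and with DY131 in DU145-Esrrb cells 5 rose and 2 fell, 7 of 11 against 58.7% of all tested genes. KLF17, which fell, belongs to the pluripotency list too and is counted in both. KLF9, a target of steroid receptors, was at 14.2 and 13.8 cpm in untreated and 4.11 and 4.17 cpm in DY131-treated DU145-pc3.1 cells (log2 fold change -1.76, SE 0.16, adjusted p = 1.07e-06). It also fell in DU145-Esrrb cells, from 14.2 and 14.9 to 7.43 and 8.48 cpm (-0.86, adjusted p = 0.000109, edgeR quasi-likelihood test). The interaction was 0.89 (adjusted p = 0.00596, same test). Of 28 other SOX, POU, TBX and grainyhead genes 15 were tested, 5 rose and 3 fell with DY131 in DU145-Esrrb cells, 8 of 15 against the same 58.7%. SOX9, an epithelial progenitor factor, was at 12.5 and 15.4 cpm untreated and 41.3 and 41.4 cpm treated (1.57, SE 0.14, adjusted p = 1.34e-07), and passed in all 17 alternatives. SOX9 also rose with DY131 in DU145-pc3.1 cells, from 18.1 and 17.1 to 36.8 and 27.8 cpm (0.88, adjusted p = 9.83e-05, edgeR quasi-likelihood test). In DU145-Esrrb cells TBX6 fell by 1.29 (adjusted p = 0.0127), and POU4F1 rose by 1.49 (adjusted p = 0.00505) from 0.934 and 1.2 to 1.83 and 4.07 cpm. They passed in 12 of 16 and in 16 of 17 alternatives, with values down to -0.70 for TBX6 and 0.77 for POU4F1. Against untreated DU145-pc3.1 cells, 11 genes of these lists were called in treated DU145-Esrrb cells, where 12.8% of all tested genes were. The log2 fold changes were 2.14 for HMGA2, 1.23 for SOX9, 1.23 for KLF12, 1.08 for POU4F1, 1.06 for ARID3B and 1.04 for MXD1, and -3.20 for IGF2BP1, -2.35 for MXD3, -1.33 for NR0B1, -1.05 for MLXIPL and -1.03 for MXD4. With the junction offset KLF12 (0.99), ARID3B (0.89), MXD1 (0.79), MLXIPL (-0.92) and POU4F1 (0.88, adjusted p = 0.065) fell short of 2-fold. POU4F1 passed in 11 of 17 alternatives, at 0.36 to 1.51 and adjusted p from 0.00505 to 0.556, NR0B1 passed in 13 of 16, and MXD4 ran down to -0.87 over the alternatives. KLF7 was called as lower than in treated DU145-pc3.1 cells (adjusted p = 0.00139), with a log2 fold change of -0.84 in the alternative closest to 0. Of the 14 LIF and WNT pathway genes, which feed the network in stem cells, 13 were tested, 5 rose and 4 fell with DY131 in DU145-Esrrb cells, against 58.7% of all tested genes that passed, and 0 were past 2-fold in edgeR's quasi-likelihood test. For DY131 in DU145-Esrrb cells, list medians of the log2 fold change were 0.11 for the pluripotency list, 0.13 for the let-7 axis, 0.042 for the MYC dimer network, 0.21 for the KLF genes, 0.094 for the SOX, POU, TBX and grainyhead genes and 0.064 for the LIF and WNT genes, against -0.0045 for all tested genes.

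For each tested member the genes whose log2 cpm ran most alike over the 8 libraries were listed by Pearson's r, as a description. TFCP2L1 was most like HK2 (0.992), TMEM201 (0.989) and TNFRSF12A (0.986), and KLF4 like HMOX1 (0.975), HDAC9 (0.967) and ICAM1 (0.96). KLF2 was most like TERF2IP and LOC400236 (both 0.99) and PIGY (0.989), KLF5 like ZNF92 (0.98), ZNF232 and LOC219731 (both 0.976). MYC was most like ZNF767 (0.987), DDX11 (0.984) and DALRD3 (0.979), and TBX3 like EIF2B5 (0.971), HERC1 (0.958) and IGF2R (0.957). With 8 libraries in 4 groups, many genes reach such values, and the members were not among each other's nearest.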

How the data were processed

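The authors trimmed the reads (50 bases, single end), used TopHat2 with hg18 for mapping and MULTICOM-MAP, their own program, to assign reads to genes. The deposited values are raw counts, whole numbers without normalization. Libraries were prepared with a kit that keeps strand, but how the counting treated strand and reads that match several genes is not given in the sources used here. Groups and replicate numbers come from the sample titles, and both DY131-treated DU145-Esrrb columns share a heading, so they carry no number and are named a and b. Among the symbols, 28 had been turned into dates, none of them a member.

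Counts were analysed with R 4.3.3 and edgeR 4.0.16. The filter kept the 13856 genes that reached 1 cpm in 2 or more libraries, TMM factors were computed, and a model of the 4 groups over all 8 libraries was tested with the quasi-likelihood F test, two-sided, with Benjamini-Hochberg adjustment over all tested genes. A gene rose or fell at an adjusted p under 0.05 and was called when its absolute log2 fold change was also at least 1. Intervals are at 95%. The 6 comparisons share libraries. p-values rest on the spread between 2 biological replicates per group, shared over the 4 groups and drawn toward that of other genes. Whether the replicates were transfected apart is not clear from the sources used here. Esrrb and other differences between the pools were not tested apart. The steps were tested on simulated data.

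The alternatives were edgeR's exact test, DESeq2 1.42.0 and its size factors, library size alone, no filter, at least 10 counts in every library, only the libraries compared, each library left out, the replicate number as a block, no fold threshold, and offsets fitted with splines of 5 degrees of freedom to the exon junction share or to length and GC content. Transcript features came from GENCODE 29 on GRCh38, matched through RefSeq identifiers (22018 genes), current symbols (721) or older symbols (255). Promoters came from RefSeq (GRCh38.p14).

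The members, the gene lists and the rules were chosen with earlier results of these data known. Named were the members, ESRRB, the called genes of the lists (up to 4 with the largest change per list and comparison), and for each member with a mean of at least 5 cpm the 3 genes with the highest Pearson's r of log2 cpm (prior count 2). Genes named beside POU5F1, SOX2 and LIN28B, as well as ZFX, HMGA1, DICER1 and IGF2BP3, were added after their values were seen. Some marker genes are not reported here.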

Additional observations from a re-analysis of the deposited data

Results flagged for a closer look

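For 4 members the effect of DY131 differed between DU145-Esrrb and DU145-pc3.1 cells by the test of the interaction in edgeR, with Benjamini-Hochberg adjustment over all tested genes. The difference of the log2 fold changes was 0.89 for KLF4, 0.88 for KLF2, 0.68 for TFCP2L1 and 0.38 for KLF5, where 33.7% of all tested genes passed the same test. For KLF4 the treated DU145-Esrrb libraries, at 17.2 and 16.1 cpm, ended near the level of both DU145-pc3.1 groups. For KLF2 and KLF5 both treated DU145-Esrrb libraries lay above all others. With the offset for exon junctions KLF4 (0.66, adjusted p = 0.0214) was the only one of the 4 to pass, while KLF2 (0.63, adjusted p = 0.143), TFCP2L1 (0.46, adjusted p = 0.0998) and KLF5 (0.14, adjusted p = 0.411) did not. DESeq2 passed KLF4 (adjusted p = 0.0184) and KLF5 (0.0398) and not KLF2 (0.188) or TFCP2L1 (0.094). The share of exon junctions moved with the same comparison (Spearman's rho = -0.457 across genes), and its part in these differences was not tested.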

How the results depend on the processing

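Of 624 member values under the alternatives, 558 kept their direction and their side of the threshold, 45 lost the threshold, 5 gained it and 16 changed sign, and 12 of the 36 member results kept both under every alternative run. Without the fold threshold, the members called numbered 1 for Esrrb against control, 2 and 5 for DY131 in DU145-pc3.1 and in DU145-Esrrb cells, 3 for Esrrb under DY131, 3 for both changes together and 4 for the interaction. DESeq2 left 0 members past the adjusted p for DY131 in DU145-pc3.1 cells, 3 for DY131 in DU145-Esrrb cells and 2 for the interaction. The offset for length and GC content left 1 for DY131 in DU145-pc3.1 cells, left 0 called for DY131 in DU145-Esrrb cells, and gave 1 called for both changes together. The offset for exon junctions left 2 past the adjusted p and 0 called for DY131 in DU145-Esrrb cells, 1 past and 0 called for Esrrb under DY131, and 1 past for the interaction. The cause was not tested.

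Leaving out each library in turn gave between 0 and 1 members past the adjusted p for Esrrb against control, 0 to 2 for DY131 in DU145-pc3.1 cells, 3 to 5 for DY131 in DU145-Esrrb cells, 2 to 4 for Esrrb under DY131, 3 to 4 for both together and 2 to 4 for the interaction. The members called stayed at 1 for DY131 in DU145-Esrrb cells, at 0 for Esrrb against control and for DY131 in DU145-pc3.1 cells, and ran from 0 to 1 for the others. A group left with 1 library was assumed to vary like the other groups.

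The sign changed with the junction offset for MYC (-0.079) and TBX3 (-0.033) with DY131 in DU145-Esrrb cells, KLF4 (-0.098) and MYC (-0.14) for Esrrb under DY131, KLF4 (-0.17) and MYC (-0.12) for both together, and MYC in the interaction (-0.096). With library size alone MYC changed sign for DY131 in DU145-pc3.1 cells (-0.015). Left-out libraries changed the sign of KLF5 (leave-one-out range -0.073 to 0.19) and TBX3 (-0.039 to 0.32) for Esrrb against control, of KLF4 (-0.17 to 0.044), KLF5 (-0.057 to 0.030), KLF2 (-0.50 to 0.035) and MYC (-0.044 to 0.090) for DY131 in DU145-pc3.1 cells, and of KLF4 (-0.042 to 0.16) for both together. None of these values had passed the test except that of MYC with DY131 in DU145-Esrrb cells.

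The replicate numbers do not pair the libraries, since the deviations of same-numbered libraries correlated at 0.0917, 0.0229 and -0.0685. These numbers are those of the sample titles, from which the numbers in some column names differ, so the correlations and the block hold for the titles' numbering alone. In the 6 numbered libraries with the replicate number as a block, KLF4 fell by 0.76 on the log2 scale with Esrrb (adjusted p = 0.0172) and TFCP2L1 rose by 0.49 with DY131 in DU145-pc3.1 cells (adjusted p = 0.0162). No paired analysis was possible for the comparisons with DY131-treated DU145-Esrrb cells, because their columns carry no number. Depth limits NANOG, SOX2 and LIN28B, for which no difference under the floor of 0.26 to 0.382 cpm per library could be seen, the 0 of SOX2 is also that of most single-exon genes, and the 0 of POU5F1 gives no level.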
